A study of Mus musculus with 2 samples.

Results

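The sirtuins are a family of 7 enzymes, Sirt1 to Sirt7, that remove acetyl and other acyl groups from lysines of proteins. They were described here together with 3 genes of NAD synthesis, Nmnat1, Nmnat3 and Nmrk2, in hindlimb skeletal muscle of Syn4 transgenic and wild-type mice. Members were taken by gene symbol from the annotation of the array, and all 10 were found among the 19938 genes with a probe set of their own, each with 1 probe set. One genotype carries the Syn4 transgene (overexpression) for syntaxin 4, a plasma membrane SNARE protein of vesicle fusion. The other is wild type. Both genotypes are male C57BL/6J on a standard chow diet, with 1 array each, and the series title ties the line to insulin sensitivity and longevity. The sources used here do not give the age of the mice, the number of mice behind each array, any pooling of RNA, or the promoter and species of the transgene.

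Sirtuins use NAD+ as a co-substrate and release nicotinamide, so their activity is tied to the supply of NAD+ in each compartment of the cell. Muscle makes most of its NAD+ by salvage: Nampt turns nicotinamide into nicotinamide mononucleotide (NMN), the kinases Nmrk1 and Nmrk2 make NMN from nicotinamide riboside, and the Nmnat enzymes join NMN to ATP to form NAD+. Sirtuins have been widely studied in ageing and in the metabolic adaptation of muscle. An array reads transcript level only, not protein or activity.

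In these arrays the 7 sirtuin transcripts had near equal levels in both genotypes. The 3 NAD synthesis transcripts were each lower in the transgenic array, as were 44.2% of all genes that passed a filter on level. The sirtuin differences, each the log2 intensity of the transgenic minus the wild-type array, ran from -0.13 to 0.07 with a median of -0.01. Those of Nmnat1, Nmnat3 and Nmrk2 were -0.47, -0.26 and -0.25, with a median of -0.26. None of the 10 reached 1.5-fold, a size at which 2.66% of genes were higher and 1.71% lower among the 9974 that passed a filter on level. With 1 array per genotype there is no measure of the spread between mice, so no difference below was tested or carries an error.

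Promoter sequences are shown for the 3 NAD synthesis genes, which were all lower, and for Sirt1 and Sirt3, which were at near equal levels, so that their elements can be set side by side. Each is the 250 bases before the outermost start given for the gene in a RefSeq promoter table (build GRCm38.p6), written 5′ to 3′ on the strand of the gene. Capitals mark the letters of common promoter elements on either strand: the E-box CACGTG, the GC box GGGCGG, the ETS site ACTTCCG, the NRF1 core GCATGCGC, the CCAAT box CCAAT and the TATA box TATAAA.
Nmnat1 (chr4:149485211-149485460, minus strand): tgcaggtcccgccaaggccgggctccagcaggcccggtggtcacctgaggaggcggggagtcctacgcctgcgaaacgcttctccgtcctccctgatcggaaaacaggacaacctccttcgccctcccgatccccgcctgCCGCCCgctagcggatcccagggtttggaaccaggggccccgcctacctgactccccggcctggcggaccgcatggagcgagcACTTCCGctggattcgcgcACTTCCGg
Nmnat3 (chr9:98296320-98296569, plus strand): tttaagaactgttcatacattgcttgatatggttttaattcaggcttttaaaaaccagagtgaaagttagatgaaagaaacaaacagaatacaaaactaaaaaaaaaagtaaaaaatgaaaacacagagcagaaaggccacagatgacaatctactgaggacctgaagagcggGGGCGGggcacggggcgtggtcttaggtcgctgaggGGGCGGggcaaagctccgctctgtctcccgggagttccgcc
Nmrk2 (chr10:81202038-81202287, minus strand): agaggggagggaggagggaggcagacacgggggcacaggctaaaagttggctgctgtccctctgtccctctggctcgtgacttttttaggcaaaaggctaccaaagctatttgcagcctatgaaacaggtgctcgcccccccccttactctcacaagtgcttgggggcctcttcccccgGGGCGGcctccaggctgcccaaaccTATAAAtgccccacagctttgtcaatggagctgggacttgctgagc
Sirt1 (chr10:63339036-63339285, minus strand): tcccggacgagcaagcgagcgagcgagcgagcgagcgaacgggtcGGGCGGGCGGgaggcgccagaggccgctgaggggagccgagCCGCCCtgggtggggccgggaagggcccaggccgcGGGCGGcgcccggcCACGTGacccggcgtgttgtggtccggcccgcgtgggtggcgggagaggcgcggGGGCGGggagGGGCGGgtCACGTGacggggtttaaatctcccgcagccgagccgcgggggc
Sirt3 (chr7:140882310-140882559, minus strand): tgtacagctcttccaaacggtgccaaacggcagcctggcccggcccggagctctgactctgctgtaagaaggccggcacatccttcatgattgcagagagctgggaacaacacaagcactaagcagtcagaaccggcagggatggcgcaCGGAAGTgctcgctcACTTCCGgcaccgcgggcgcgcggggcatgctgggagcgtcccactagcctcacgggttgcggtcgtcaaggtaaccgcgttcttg

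The promoters of the 3 lower genes each held a GC box and otherwise differed in the letters searched. Nmnat1 held 2 ETS sites, which began 27 and 8 bases before the start, and 1 GC box. Nmnat3 held 2 GC boxes, at 77 and 41 bases, in a window of 45.6% G and C. Nmrk2 was the only member with TATAAA, 46 bases before its start, and it held 1 GC box. Sirt1 was the most GC-rich of the 10 windows, at 79.2%, and the only one with the E-box, which it held at 115 and 43 bases. It also held 6 matches to the GC box, of which the pair at 205 and 201 bases overlap. Sirt3 held 2 ETS sites, at 101 and 86 bases, the same letters that Nmnat1 holds. A match to these letters is a description of the sequence and not a bound site.

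Promoter windows matched all 10 members, and the same search was run on 27025 genes with a window of this length. The elements were chosen with the sequences in view. The shares below therefore describe the windows and cannot show that an element is more common in the members. The median G and C content of all windows was 52.0%. GC boxes stood in 7 of the 10 members and in 33.0% of all windows. ETS sites stood in 3 (Nmnat1, Sirt3 and Sirt6), against 4.97% of all windows, and the NRF1 core in 2 (Sirt6 and Sirt7), against 2.31%. CCAAT stood in 2 (Sirt2 and Sirt5), against 34.5%, TATAAA in 1, against 13.0%, and the E-box in 1, against 6.04%. Sirt4 held none of the letters searched. The 3 genes with an ETS site differed by -0.47 (Nmnat1), -0.01 (Sirt3) and -0.08 (Sirt6). Any link between a promoter element and these differences was not tested.

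The labels of the arrays were checked first. Stx4a, which encodes syntaxin 4, read 12.20 in transgenic and 8.84 in wild-type muscle on the log2 scale, so the array with the transgenic label held more of its signal. All 6 muscle fibre markers (Ckm, Acta1, Mb, Actn3, Tnnt3 and Myh4) were bright in both arrays, from 13.92 to 14.45, and differed by -0.06 (Actn3) to 0.08 (Myh4). These values lie near the top of the arrays' range, which ended at 14.83 in transgenic and 14.80 in wild-type muscle, so that they check the tissue and say little on equal amounts of fibre. All 8 slow-fibre markers (Myh7, Tnnt1, Tnni1, Tnnc1, Myl3, Myl2, Atp2a2 and Tpm3) were lower by at least 1.5-fold, against 1.71% of genes that passed the filter on level. They ran from -1.02 in Myl3 to -0.63 in Myl2 and Tpm3. The other probe sets of Tpm3 were at -0.60, and at -0.54 and -0.37, short of 1.5-fold. The summed linear intensity of the 8 markers was 30870 in transgenic and 53422 in wild-type muscle. All 5 white adipocyte markers measured (Lep, Adipoq, Cidec, Plin1 and Retn) were higher, by 1.15 in Retn to 3.20 in Lep, with a sum of 3350 in transgenic and 970 in wild-type muscle. Log2 intensities have no true 0, and among these adipocyte markers Lep alone was under the level filter in one array, at 5.86 in wild type. Fibroblast markers ran from 0.14 (Dcn) to 0.74 (Lum, past 1.5-fold), macrophage markers from -0.12 (Adgre1) to 0.25 (C1qa), endothelial markers from -0.44 (Kdr) to 0.12 (Pecam1), and the Schwann cell markers Sox10 and Mbp were at 0.09 and 0.51. The part that these shifts play in the values below was not tested. In bulk tissue, fewer cells of a type and less RNA per cell cannot be told apart.

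Counts use a level filter: the higher of the 2 values had to reach 6.79, its median across genes. It kept 9974 genes, whose median difference was 0.03, with the middle 50% from -0.12 to 0.17, and 53.5% of them were above 0 and 44.2% below. Of these, 2.66% were higher in the transgenic array by at least 1.5-fold (0.585 on the log2 scale) and 1.71% were lower. Among the members, 9 of 10 passed the filter and Sirt7 did not, and 0 of the 9 were past 1.5-fold in either direction. At such low background shares a count of 0 in 9 genes does not set the members apart from other genes.

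**Figure D1:**
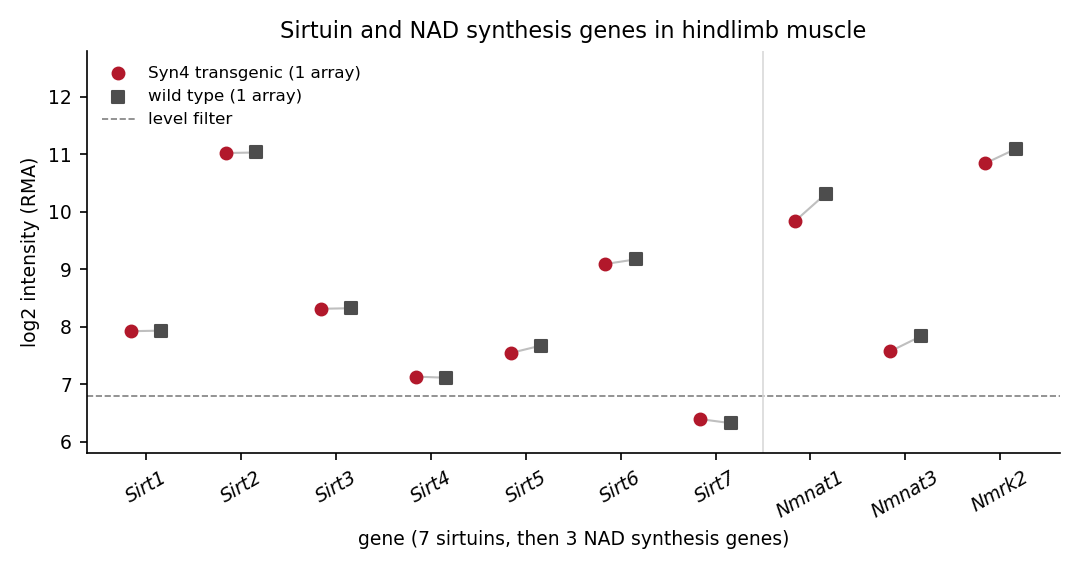
Log2 RMA intensity (vertical axis) of each of the 7 sirtuins and 3 NAD synthesis genes in the Syn4 transgenic array (red circles) and the wild-type array (grey squares), 1 array per genotype, with the level filter of 6.79 dashed. The pairs of Sirt1 to Sirt4 lie nearly level, the transgenic points of Nmnat1, Nmnat3 and Nmrk2 lie below their wild-type points, and both Sirt7 points lie under the filter. Heights of different genes come from different probes and cannot be ranked.

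Among the sirtuins of the nucleus, Sirt1 deacetylates transcriptional regulators such as p53, FOXO factors and PGC-1alpha. Its probe set (10369738, chromosome 10) read 7.92 in transgenic and 7.93 in wild-type muscle, a difference of -0.01. Sirt6, a chromatin-bound histone deacetylase with roles in DNA repair and glucose metabolism (10371256, chromosome 10), read 9.09 in transgenic and 9.17 in wild-type muscle, a difference of -0.08. Sirt7, which is enriched in the nucleolus and acts on ribosomal gene transcription (10393866, chromosome 11), read 6.39 in transgenic and 6.32 in wild-type muscle. Its difference of 0.07 was the highest of the family, but both values lay under the level filter. Over these 3 genes the median difference was -0.01.

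Sirt2 is mainly cytosolic and deacetylates tubulin and metabolic enzymes. Its probe set (10551570, chromosome 7) read 11.02 in transgenic and 11.03 in wild-type muscle. The difference of -0.01 equals that of Sirt1 and of Sirt3, and 97.7% of the genes past the filter differed by at least as much. A difference this small has no settled direction.

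The 3 sirtuins of mitochondria had differences of -0.13 to 0.02. Sirt3, the main deacetylase of the mitochondrial matrix (10568997, chromosome 7), read 8.31 in transgenic and 8.32 in wild-type muscle. Sirt4, which has weak deacetylase activity and acts on other acyl groups and by ADP-ribosylation (10532999, chromosome 5), read 7.13 in transgenic and 7.11 in wild-type muscle. Sirt5, which removes succinyl, malonyl and glutaryl groups (10404815, chromosome 13), read 7.54 in transgenic and 7.67 in wild-type muscle. The Sirt5 difference of -0.13, a 1.09-fold lower level, was the largest in size of the 7 sirtuins, and 56.8% of the genes past the filter differed by at least as much. Differences of 0.13 or less in size were found for 45.9% of those genes, so near equal levels are common in this pair of arrays. The sign of Sirt4 (0.02) turned with median centring (-0.02) and quantile scaling (-0.01), and values this close to 0 have no settled direction.

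All 3 NAD synthesis members lay lower in the transgenic array, against 44.2% of all genes past the filter. The members were chosen with earlier results of these data known, so this count does not set them apart. Nmnat1, the nuclear NMN adenylyltransferase that forms NAD+ where Sirt1, Sirt6 and Sirt7 act (10518679, chromosome 4), read 9.84 in transgenic and 10.31 in wild-type muscle. The difference of -0.47 is a 1.39-fold lower level, and 2.98% of the genes past the filter were as low or lower. Nmnat3, the mitochondrial adenylyltransferase (10588028, chromosome 9), read 7.57 in transgenic and 7.83 in wild-type muscle, a 1.20-fold lower level, and 11.1% of genes were as low or lower. Nmrk2, the nicotinamide riboside kinase enriched in striated muscle (10371082, chromosome 10), read 10.84 in transgenic and 11.09 in wild-type muscle, a 1.19-fold lower level, and 11.7% of genes were as low or lower. These shares count lower genes only, while Sirt2 and Sirt5 were set against differences in either direction. By that measure, 7.59% of genes past the filter differed by at least as much as Nmnat1. It was 27.0% for Nmnat3 and 28.5% for Nmrk2. The 3 genes lie on different chromosomes, and Nmrk2 shares chromosome 10 with Sirt1 and Sirt6, which were near equal. Over the scaling alternatives Nmnat1 ranged from -0.51 to -0.47, Nmnat3 from -0.31 to -0.26 and Nmrk2 from -0.29 to -0.25, so all stayed below 0. Whether differences of this size exceed the variation between mice was not tested, and the slow-fibre markers given above were lower in the same array.

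**Figure D2:**
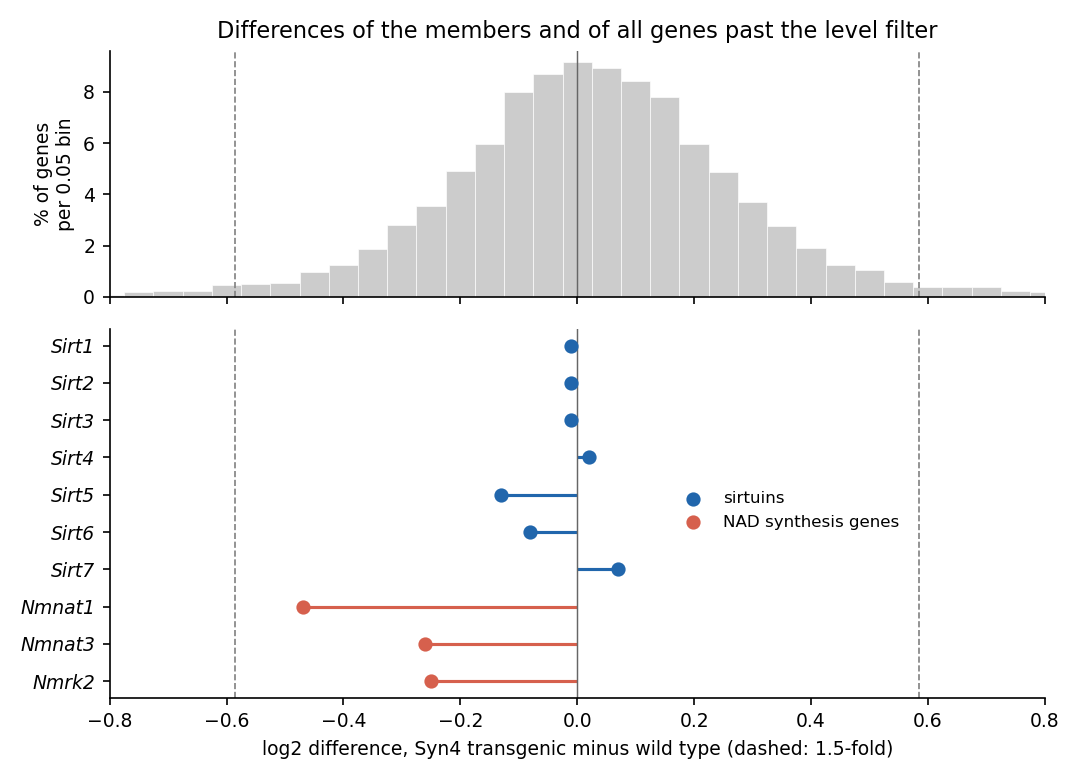
Top: distribution of the log2 difference, Syn4 transgenic minus wild type (horizontal axis), over genes past the level filter, as percent of genes per bin of 0.05, with genes beyond 0.8 in size not drawn. Bottom: the difference of each of the 10 members on the same axis, sirtuins in blue and NAD synthesis genes in red, with 1.5-fold dashed. The 7 sirtuins lie between -0.13 and 0.07 near the centre of the distribution, and Nmnat1 at -0.47, Nmnat3 at -0.26 and Nmrk2 at -0.25 lie left of it, inside the dashed lines.

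The other genes of the routes to NAD+ were mixed. They include Acmsd (-0.12, under the filter), whose enzyme draws an intermediate away from NAD+. Of 14 measured, 5 were above 0 and 9 below, with a median of -0.06 and a mean of 0.02, which differ in sign. Nampt, the rate-limiting enzyme of salvage, read 11.21 in transgenic and 11.38 in wild-type muscle, a difference of -0.17 in the direction of the 3 members, and Nmrk1 was at -0.03. Afmid, which hydrolyses formylkynurenine in the route from tryptophan, was 1.75-fold higher, at 8.16 in transgenic and 7.35 in wild-type muscle, and was the only one of the 14 past 1.5-fold and the filter. Haao, of the same route, was lowest at -0.27 but under the filter, as were 11 of the 14 genes in all, among them Nmnat2 (0.01), Qprt (0.46), Ido1 (-0.08) and Kynu (-0.16). Nmrk1 thus lay within the range of the sirtuins, and Nampt just beyond it.

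The 6 genes of NAD phosphorylation and transport ran from -0.77 to -0.01. Their median was -0.18, or -0.11 over the 5 past the level filter, which leaves out Slc12a8 (-0.39). Nnt, the mitochondrial transhydrogenase that uses NADH to form NADPH, was 1.71-fold lower, at 9.15 in transgenic and 9.92 in wild-type muscle. The C57BL/6J strain, given for both genotypes, is known for a deletion of several Nnt exons. The sources used here do not say which exons the probe set reads. Any link of the deletion to this difference was not tested. Nadk2, the mitochondrial NAD kinase, was at -0.25. Nadk, the cytosolic kinase, and Slc25a51, the mitochondrial NAD+ carrier, were both at -0.01, near equal and the highest of the list. Nnt was the only one past 1.5-fold.

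Other NAD+ users, which compete with sirtuins for the co-substrate, and related enzymes were centred near 0, and none was past 1.5-fold. Among the related enzymes, Parg (0.21) and Macrod1 (-0.22) remove ADP-ribose and do not consume NAD+. Of 20 measured genes of poly- and mono-ADP-ribosylation and related enzymes, 11 were above 0 and 9 below, with a median of 0.03, or -0.02 after median centring and -0.005 after quantile scaling. The NAD+ users Cd38 and Parp4 had no probe set of their own and were not analysed. Art3, an ADP-ribosyltransferase family member, was highest at 0.58, just short of the limit, with 11.37 in transgenic and 10.79 in wild-type muscle. Parp8 was lowest at -0.41. Parp1, the main poly(ADP-ribose) polymerase of DNA damage, read 8.89 in transgenic and 8.94 in wild-type muscle, and tankyrase (Tnks) was at 0.43. Parp1 thus stood as near to equal as the sirtuins did.

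The list of nicotinamide and NMN clearance, which also holds genes of related steps, included one of the larger differences among the lists. Nnmt, which methylates nicotinamide and so removes it from salvage, was 1.77-fold higher, at 8.41 in transgenic and 7.59 in wild-type muscle. Nnmt is also abundant in white adipocytes, whose markers were higher in the same array as given above, and the part of those cells in its value was not tested. Nt5c1a, a cytosolic nucleotidase of muscle, was 1.60-fold lower, at 8.71 in transgenic and 9.39 in wild-type muscle. The other 6 of the 8 measured genes lay between -0.10 and 0.39, and the list had a median of 0.07. The Nnmt transcript was thus higher and those of Nmnat1 and Nmnat3 lower in the same array.

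**Figure D3:**
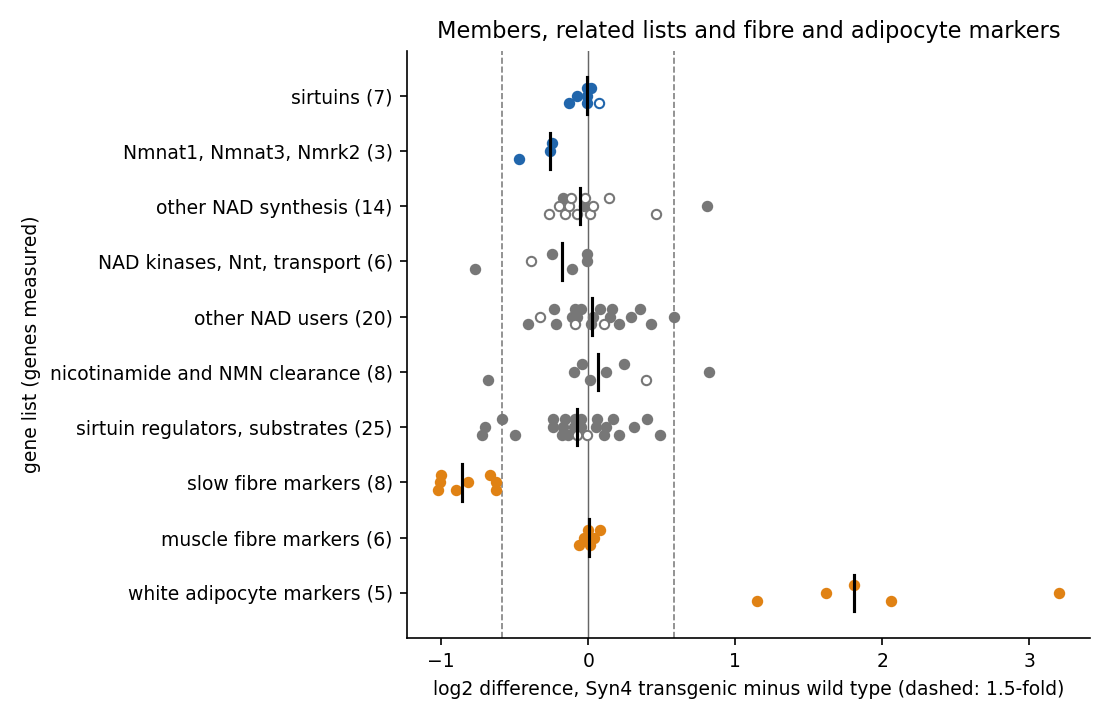
Log2 difference, Syn4 transgenic minus wild type (horizontal axis), of every measured gene of each list; filled points passed the level filter, open points did not, black bars are list medians and dashed lines mark 1.5-fold. Members are blue, related lists grey and cell composition markers orange. The sirtuins centre on -0.01 and the 3 NAD synthesis members on -0.26, between the slow-fibre markers at a median of -0.86 and the white adipocyte markers at 1.81.

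Regulators and known substrates of sirtuins showed larger differences than the sirtuins themselves in several mitochondrial enzymes. Of 25 measured, 9 were above 0 and 16 below, with a median of -0.08. Past 1.5-fold and lower were Acss1, the mitochondrial acetyl-CoA synthetase (9.19 in transgenic and 9.91 in wild-type muscle, 1.65-fold), Idh2, the mitochondrial NADP-dependent isocitrate dehydrogenase (12.03 in transgenic and 12.73 in wild-type muscle, 1.62-fold), and Ppif, cyclophilin D of the permeability transition pore (10.44 in transgenic and 11.03 in wild-type muscle, 1.51-fold). All 3 are deacetylated by Sirt3, whose own transcript differed by -0.01. Among all genes past the filter, 1.71% were lower by at least 1.5-fold. Of the 11 mitochondrial proteins on the list, a subset drawn after the values were seen, 10 were below 0, against 44.2% of all genes past the filter. Their median was -0.17 and their range from -0.72 to 0.06. Cps1 (-0.08), counted among the 11, lay under the filter on both arrays, at 4.63 in transgenic and 4.71 in wild-type muscle. Sod2, the matrix superoxide dismutase, was at -0.24 and Opa1 at 0.06. The slow-fibre markers were lower in the same array, and their part in these values was not tested.

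Targets and partners of Sirt1 on the list differed in both directions. The 3 FOXO genes, which encode stress-responsive transcription factors, were grouped after the values were seen. All 3 were above 0, against 53.5% of all genes past the filter. Foxo1 was highest of the list at 0.49 (9.14 in transgenic and 8.65 in wild-type muscle), with Foxo3 at 0.40 and Foxo4 at 0.17. Acss2, the acetyl-CoA synthetase of cytosol and nucleus that Sirt1 deacetylates, was 1.41-fold lower, at 9.87 in transgenic and 10.37 in wild-type muscle. Ppargc1a, the coactivator PGC-1alpha, was at -0.05 on its brighter probe set and -0.27 on the other. Ccar2, which inhibits Sirt1, was at -0.05, Rps19bp1, a Sirt1 activator, at 0.12 and Hic1, a repressor of Sirt1 transcription, at -0.18. These 3 regulators of Sirt1 thus lay between -0.18 and 0.12, and Sirt1 itself at -0.01.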

How the data were processed

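RNA of hindlimb skeletal muscle was measured on 1 array per genotype. The authors deposited log2 intensities of 35556 probe sets, made with RMA in Partek per the submitters' processing notes; the sources used here give neither versions nor steps. The median was 6.06 in both arrays. RMA compresses large ratios and gives no call of signal over background, and the number of arrays limits precision.

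Of the probe sets, 21789 carried 1 gene symbol, 1621 several (not used) and 12146 none. Entrez identifiers matched 21698 to RefSeq GRCm38.p6 and changed 0 symbols. For the 999 genes with several probe sets the one with the highest mean was used. Differences were taken on the values as deposited, with no test, p-value or SD. The rule of size was 1.5-fold and the level filter 6.79.

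Members and lists were chosen with earlier results of these data known. Named are all members, the highest, lowest and past-1.5-fold genes of each list, markers and Stx4a; any other gene was named after its value was seen. Listed genes without a probe set of their own were not analysed here: 2 NAD+ users (Cd38 and Parp4), 1 clearance gene, 4 regulators or substrates, 1 acetyltransferase, 1 adipocyte marker and 2 Schwann cell markers. Macrophage, endothelial, fibroblast and Schwann cell markers had median differences of 0.12, 0.01, 0.21 and 0.30 over 5, 4, 4 and 2 genes. Promoter elements were chosen with the sequences in view. Counting and scaling steps were tested on simulated data. Work used Python 3.11.15, numpy 2.4.6, pandas 2.3.3, statsmodels 0.14.6 (loess span 0.3, 3 iterations) and matplotlib 3.10.9. Alternatives were other level filters, a 2-fold rule, averaged probe sets, median centring, loess, quantile scaling and list means.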

Additional observations from a re-analysis of the deposited data

How the results depend on the processing

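With 1 array per genotype, no difference has a replicate check, and no array could be left out. No paired analysis was possible because each genotype had a single array. The counts of members past 1.5-fold were 0 in both directions under all 16 alternative values run (no filter, a filter at the olfactory receptor 95th percentile of 5.47, a filter on both arrays, 2-fold, averaged probe sets, median centring, loess and quantile scaling). The 40 alternative values of the member differences moved by at most 0.06, and 2 turned sign, both of Sirt4. The 54 alternative list summaries moved by at most 0.08, and 4 turned sign. These were the other NAD synthesis genes with the mean (0.02), the other NAD+ users with median centring (-0.02) and quantile scaling (-0.005), and the zinc-dependent deacetylases with median centring (-0.01). Each scaling shifted the median of the filtered genes by 0.05 or less. Sirt7 lay under the level filter on both arrays, so a small difference in it may not be visible.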

Other observations

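Enzymes that add and remove acetyl groups without NAD+ were read as well. Among all genes past the filter, 45.9% differed by 0.13 or less in size, the largest difference of a sirtuin. Lying beyond the range of the sirtuins is thus common and does not set these enzymes apart. Of 11 zinc-dependent deacetylases, all past the level filter, 7 were above 0 and 4 below, with a median of 0.03, or -0.01 after median centring. Hdac4, a class IIa deacetylase that represses MEF2 target genes in muscle, was 1.75-fold higher, at 10.18 in the transgenic and 9.37 in the wild-type array. Its second probe set read 10.12 in the transgenic and 9.39 in the wild-type array, a difference of 0.73. Of the same class, Hdac5 was at 0.30, Hdac7 at -0.03 and Hdac9 at -0.13, so the class was mixed. Hdac10 was lowest of the list at -0.22.

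The acetyltransferase list held 9 measured lysine acetyltransferases and Naa15, a subunit of an N-terminal acetyltransferase, which was at -0.07. Of the 9, a count taken after the values were seen, 7 were above 0, against 53.5% of all genes past the filter. The median of all 10 was 0.22, beside 0.03 for those genes, and none was past 1.5-fold. Kat2b, which encodes PCAF, was highest at 0.41, with 9.44 in the transgenic and 9.03 in the wild-type array. Kat2a, the paralogue of Kat2b, was at -0.09. Crebbp, the coactivator CBP, was at 0.38, its paralogue Ep300 at 0.27 and Kat5, the catalytic subunit of the NuA4 complex, lowest at -0.11. The spread between mice is unknown for all of these values.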
